A study of Arabidopsis thaliana with 4 samples.

Results

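Transcripts of 4 genes that serve protein folding in the endoplasmic reticulum (ER) were followed in roots of Arabidopsis thaliana plants that lack ER bodies. The genes were CRT1b (AT1G09210), BIP1 (AT5G28540), ATERDJ3B (AT3G62600) and BZIP60 (AT1G42990). They were chosen by name from among the ER chaperone and stress response genes to which the platform annotation gives a probe of their own. Each had 1 such probe, and they are 4 of the 9254 genes measured by a probe with a single named gene. The choice of genes used no measured value, but it was made with earlier results of the same arrays known.

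The mutant was nai1-1, described by the submitters as deficient in ER bodies, and the control was Col-0, the wild type. No treatment was applied to either genotype. Plants were 20 days old and had been kept at 22 °C in continuous light, both genotypes on the same plates of MS medium with 1% sucrose and 0.5% gellan gum. Root RNA from 3 pooled plants stood for each genotype. On each of 4 two-colour arrays, one genotype was labelled with Cy3 and the other with Cy5. The mutant carried Cy3 on arrays 1 and 4 and Cy5 on arrays 2 and 3. The labels number the arrays as replicates but do not say whether separate pools of plants were used, so p-values and intervals below measure the spread between arrays, which may be technical. An array of this kind gives a ratio between genotypes, not a level, so root identity could not be checked against marker levels, and fewer cells of a type cannot be told apart from less RNA per cell.

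Proteins that enter the secretory pathway fold in the ER. BiP proteins are the HSP70-type chaperones of its lumen, J-domain proteins such as ERdj3B deliver clients to them and stimulate their ATPase, and calreticulins hold glycoproteins through their sugar chains. When unfolded proteins accumulate, the unfolded protein response is switched on: the RNA of bZIP60 is spliced by the sensor IRE1 so that it encodes an active transcription factor, bZIP17 and bZIP28 are released from the membrane by site-1 and site-2 proteases, and chaperone genes are induced. An ER body is an ER-derived structure that root cells of Brassicaceae fill with beta-glucosidase, a protein that itself folds in the ER.

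Each value is the log2 of the nai1-1 signal over the Col-0 signal, in which 1 unit is a 2-fold difference and a negative value is a lower transcript level in the mutant. The direction follows from the dyes in the labels and from the extraction software's habit of writing Cy5 over Cy3. The submitters do not state it, and with the opposite habit every sign would turn. The arrays differed in width: the median absolute deviation of the single-gene probes was 0.26, 0.223, 0.155 and 0.125 on arrays 1 to 4, while their medians lay between -0.005 and 0.024. NAI1, the transcription factor gene that is mutated, had ratios of -0.77, -1.21, -0.21 and -0.60 on arrays 1 to 4 (limma adjusted p = 0.259). NAI2 (-2.81 ± 0.11, SE, n = 4, adjusted p = 0.0181) and PYK10 (-2.01 ± 0.11, adjusted p = 0.032), an ER body component and the main ER body beta-glucosidase of roots, both fell by the same fit. Both kept ratios of -1.68 or lower on every array, but neither passed when any 1 array was left out (adjusted p from 0.176 to 0.411), when arrays 1 and 2 and arrays 3 and 4 were averaged as 2 replicates (adjusted p = 0.201 for each), or when the arrays were scaled to a common spread (0.222 for each).

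None of the 4 folding genes passed the test that compared the genotypes: 0 of 4 had an adjusted p under 0.05 in limma's fit over all 22575 probes, and 0 of 4 had an unadjusted p under 0.05. Over all probes 0.496% passed the first threshold (0.0133% higher and 0.483% lower in nai1-1) and 12.9% the second. CRT1b and BIP1 had mean ratios above 0 that came mostly from array 1. ATERDJ3B lay slightly above 0 and BZIP60 below 0 on each of the 4 arrays. Everything that follows about these genes is therefore a description of differences whose 95% intervals include 0.

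CRT1b encodes a calreticulin, a calcium-binding lectin chaperone. Its log2 ratio was 1.18 on array 1, 0.09 on array 2, 0.07 on array 3 and 0.02 on array 4. Array 1 alone was high, and the other 3 values differed from each other by less than 0.1. The mean was 0.34 ± 0.21 (SE, n = 4) with a 95% interval from -0.23 to 0.92, which is 0.851-fold to 1.89-fold (adjusted p = 0.577). Without array 1 the fitted ratio was 0.05 ± 0.10. CRT1a, its close relative, had no named probe, and whether the CRT1b probe also takes up CRT1a transcripts could not be checked.

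BIP1 encodes a BiP, the lumenal HSP70. Its log2 ratio was 1.05 on array 1, 0.17 on array 2, -0.02 on array 3 and 0.15 on array 4. Here too array 1 was high and the other arrays lay close to 0, on both sides of it. The mean was 0.34 ± 0.17 (SE, n = 4) with a 95% interval from -0.13 to 0.81, or 0.912-fold to 1.75-fold (adjusted p = 0.508). Without array 1 it was 0.11 ± 0.11. BIP1 and BIP2 are nearly identical in sequence, and with no probe sequence at hand it could not be checked whether the BIP1 probe also takes up BIP2 transcripts. BIP2 and BIP3 have no value here, since no probe carried their names.

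ATERDJ3B encodes the J-domain co-chaperone ERdj3B, which works with BiP in the ER lumen. Its log2 ratio was 0.35 on array 1, 0.16 on array 2, 0.14 on array 3 and 0.13 on array 4. The 4 arrays were all above 0, array 1 being the highest, and the range was 0.23. The mean was 0.19 ± 0.08 (SE, n = 4), a 1.14-fold difference, with a 95% interval from -0.04 to 0.42 (adjusted p = 0.453).

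BZIP60 encodes the transcription factor whose RNA is the splicing target of IRE1. Its log2 ratio was -0.20 on array 1, -0.59 on array 2, -0.12 on array 3 and -0.19 on array 4. All 4 arrays were below 0, and array 2 was the lowest. The mean was -0.28 ± 0.11 (SE, n = 4) with a 95% interval from -0.57 to 0.02 (adjusted p = 0.417), and without array 2 it was -0.16 ± 0.10. The probe gives one ratio for the gene, and spliced and unspliced RNA were not distinguished. The photosynthesis genes kept as shoot markers were lower on array 2 as well: 6 of 27 were measured, 0 of 6 were above 0 there with a median of -0.44, and their medians were 0.06, -0.03 and 0.17 on arrays 1, 3 and 4. Their part in the BZIP60 value was not tested.

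**Figure D1:**
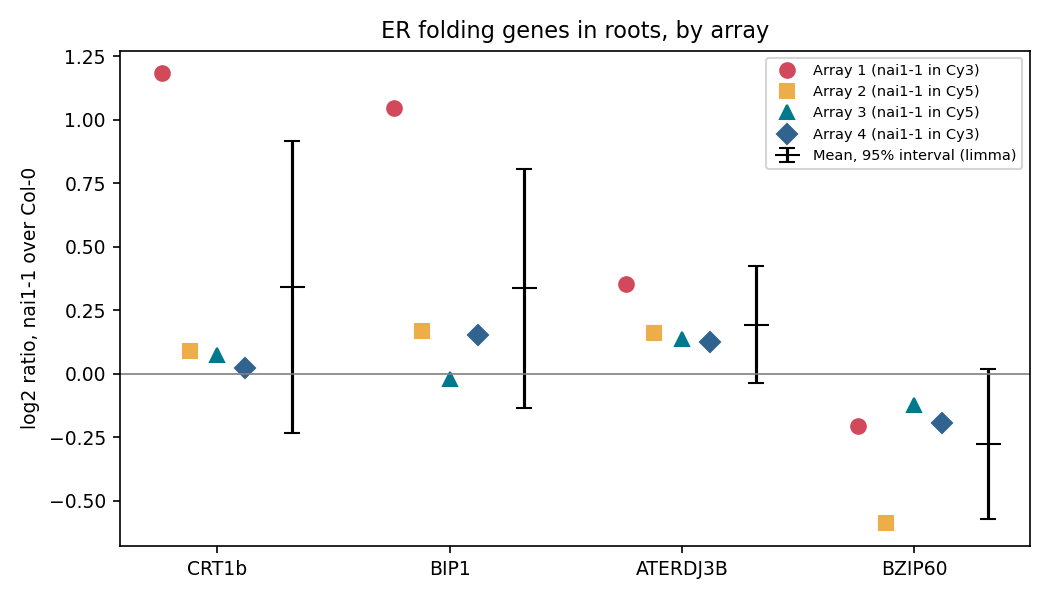
The vertical axis is the log2 ratio of nai1-1 over Col-0, with 1 symbol for each array and, at the right of each gene, the mean of 4 arrays with limma's 95% interval. The array 1 values of CRT1b (1.18) and BIP1 (1.05) stand above all others, the 4 BZIP60 values lie below 0, and all 4 intervals include 0.

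The 95% intervals of the 4 genes all included 0 and none reached a 2-fold difference in either direction. The upper bounds were 0.92 for CRT1b, 0.81 for BIP1, 0.42 for ATERDJ3B and 0.02 for BZIP60, and the lowest lower bound was -0.57, that of BZIP60. These bounds take the 4 arrays as independent. The smallest mean ratio that passed the threshold among all probes in this fit was 0.88 in size. Means such as these 4 lay below what this fit called. Other fits of the same 4 arrays passed different numbers of probes, so 0.88 is not a fixed limit of the arrays.

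The ratios were also set beside the dye orientation, whose part in the array 1 values was not tested. Array 4 had the mutant in Cy3, as array 1 did, and gave 0.02 for CRT1b and 0.15 for BIP1, against 1.18 and 1.05 on array 1. Over arrays 1 and 4, with the mutant in Cy3, the mean was 0.60 for CRT1b and 0.60 for BIP1. On arrays 2 and 3, with the mutant in Cy5, the mean was 0.08 for CRT1b and 0.07 for BIP1. For BZIP60 the mean was -0.20 with the mutant in Cy3 and -0.35 with it in Cy5, and for ATERDJ3B it was 0.24 and 0.15. All 4 genes kept their sign in both dye orientations.

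The members differed among themselves in the same way on every array in one respect: BZIP60 had the lowest ratio of the 4 genes on 4 of 4 arrays. On array 1 it stood at -0.20 against 0.35 to 1.18 for the 3 chaperone genes, on array 2 at -0.59 against 0.09 to 0.17, on array 3 at -0.12 against -0.02 to 0.14, and on array 4 at -0.19 against 0.02 to 0.15. ATERDJ3B exceeded BZIP60 by 0.56, 0.75, 0.26 and 0.32 on arrays 1 to 4 (mean 0.47 ± 0.23, SD). BIP1 exceeded it by 1.25, 0.76, 0.10 and 0.35, and CRT1b by 1.39, 0.68, 0.20 and 0.21. These differences are given without a test, since the genes were not chosen blind to them. A difference between 2 ratios on an array includes measurement noise. Such a difference does not say which gene, if any, changed.

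CRT1b and BIP1 followed each other closely. CRT1b minus BIP1 was 0.14, -0.08, 0.10 and -0.13 on arrays 1 to 4, a mean of 0.01 ± 0.13 (SD). By Euclidean distance between the 4 array values, BIP1 was number 9 among the 9246 other single-gene probes nearest to CRT1b, at a distance of 0.23 log2 units. ATERDJ3B was number 1170 and BZIP60 number 7388. The likeness of CRT1b and BIP1 rests mainly on the array 1 value, where both were far from 0.

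Array 1 was then set against the other 3. It was chosen with earlier results of these genes known, so the shares below describe its values and do not measure rarity. CRT1b on array 1 exceeded its mean on arrays 2 to 4 by 1.12, a difference that 1.61% of all single-gene probes reached. BIP1 exceeded it by 0.95, reached by 3.03%, ATERDJ3B by 0.21, reached by 31.1%, and BZIP60 by 0.10, reached by 41.6%. Within array 1 itself, 1.14% of probes were at or above the CRT1b value and 2.003% at or above that of BIP1. On arrays 2, 3 and 4 the same shares were 41.7%, 39.7% and 44.2% for CRT1b and 31.6%, 56.9% and 19.6% for BIP1. Both genes thus lay near the top of the array 1 distribution and near the middle or upper part of the others.

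**Figure D2:**
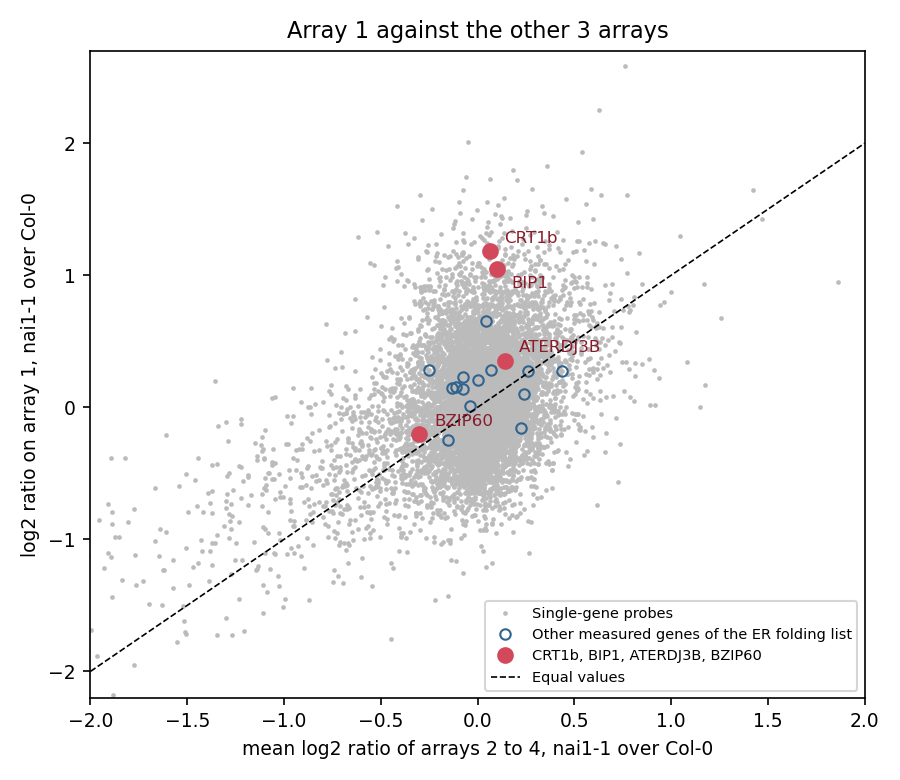
Each point is a single-gene probe, with the mean log2 ratio of arrays 2 to 4 on the horizontal axis and the log2 ratio on array 1 on the vertical axis. The dashed line marks equal values, and 32 probes beyond the axes are not drawn. CRT1b and BIP1 lie 1.12 and 0.95 above their means on the other arrays, ATERDJ3B and BZIP60 near the line, and many other probes lie as high on array 1.

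By Dixon's criterion for 4 values (the gap to the nearest value divided by the range, set against its 95% critical value), array 1 stood apart for 2 of the 4 genes, CRT1b (0.941) and ATERDJ3B (0.85). BIP1 fell just short for array 1 (0.824), and BZIP60 just short for array 2 (0.821). Over the single-gene probes without an exact 0, 5.73% had 1 array apart, and 1.74% had array 1 apart on the high side. The ATERDJ3B values spanned 0.23 log2 units in all, against 1.16 for CRT1b. When the arrays were centred and scaled to a common spread, array 1 stood apart for 1 of the 4, CRT1b (0.81 on array 1 against 0.03 to 0.09), and not for ATERDJ3B (0.24 against 0.13 to 0.18). BIP1 was then at 0.72 on array 1 against -0.03 to 0.22.

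Other genes had the CRT1b pattern too. A ratio above 1 on array 1 was found for 214 single-gene probes (2.29%), and 18 of these (0.193% of all) had the other 3 arrays within 0.2 of 0. Leaving out CRT1b and BIP1, which are among them, the counts were 212 and 16. The 3 probes nearest to CRT1b were those of AT4G17520 (distance 0.12), AT2G47610 (0.15) and AT1G29320 (0.15), with 1.19, 1.08 and 1.09 on array 1 and between -0.04 and 0.16 on the other arrays. Nearest to BIP1 were AT1G48230 (0.08), AT1G53040 (0.12) and ILA (AT1G64790, 0.14), at 0.99, 1.01 and 0.92 on array 1.

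Nearest to ATERDJ3B were ATNTH1 (AT2G31450, a DNA glycosylase gene) at a distance of 0.04, AT4G08520 at 0.06 and AT3G13410 at 0.06. Nearest to BZIP60 were AT1G27200 at 0.04, AT4G33150 at 0.06, a gene of lysine breakdown annotated as LKR/SDH, and AT1G55270 at 0.09. These last 3 had -0.58, -0.57 and -0.51 on array 2 and between -0.24 and -0.08 on the others. Near matches over 4 arrays among 9246 probes are common, and the distances are given as a description.

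The 4 genes were set beside the other measured genes of ER folding. A list of 68 such genes was written from textbook knowledge, and 18 of them had a single-gene probe: 0 rose, 0 fell and 18 did not pass. At an unadjusted p under 0.05, 1 of the 18 had a ratio above 0 and none a ratio below 0, against 14.9% of all single-gene probes in either direction. The median of the 18 means was 0.09, against 0.02 over all single-gene probes, and the means ran from -0.28 (BZIP60) to 0.39 (AT4G29520). Of the 18, 3 were above 0 on all 4 arrays and 1 below 0 on all 4. Over all single-gene probes these shares were 12.9% and 12.2%.

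Among chaperones and co-chaperones, 5 of 12 listed genes were measured. ATERDJ2A and ATERDJ2B are J-domain proteins of the ER membrane that belong to the protein translocation machinery. ATERDJ2A was at 0.65, -0.11, 0.04 and 0.21 on arrays 1 to 4, again with array 1 highest (mean 0.20 ± 0.11, adjusted p = 0.539). ATERDJ2B was at 0.14, -0.45, 0.02 and 0.04 (mean -0.06 ± 0.11, adjusted p = 0.848). AT4G29520, which has no symbol in the gene table, was the gene with the unadjusted p under 0.05. It was at 0.27, 0.59, 0.51 and 0.21, above 0 on 4 of 4 arrays and not highest on array 1 (mean 0.39 ± 0.08, limma adjusted p = 0.157).

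Of 8 genes for calreticulins, calnexins and the enzymes that trim or re-glucosylate their clients, 2 were measured, CRT1b and AT5G07340. AT5G07340 was at 0.23, -0.46, 0.32 and -0.10 (mean 0.00 ± 0.16). Among 15 genes for disulfide bond formation, PDIL5-1, a protein disulfide isomerase-like gene, was the single one measured. It was at 0.10, -0.06, 0.61 and 0.16, with array 3 the highest (mean 0.20 ± 0.14, adjusted p = 0.607). None of 6 listed genes for glycosylation and translocation had a named probe.

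Of 14 listed genes for stress signalling, 4 were measured. BZIP17 and BZIP28 encode the membrane-bound transcription factors of the second branch of the response, and S1P encodes the site-1 protease that cuts them. BZIP17 was at 0.14, -0.12, -0.11 and 0.01 (mean -0.02 ± 0.08). BZIP28 was at 0.28, -0.26, -0.19 and -0.30, above 0 on array 1 alone (mean -0.12 ± 0.13, adjusted p = 0.73). S1P was at 0.01, -0.04, -0.05 and -0.04 (mean -0.03 ± 0.08). With BZIP60, the 4 signalling genes had means between -0.28 and -0.02 and none passed. IRE1A and IRE1B were not analysed here, since they had no named probe.

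Of 13 genes for the removal of misfolded proteins, 6 were measured. DER1, DER2.1 and DER2.2 encode derlins, membrane proteins of the degradation pathway, and had means of 0.12, -0.05 and -0.17. DER2.2 was at -0.24, 0.04, -0.24 and -0.25, with array 2 the highest. OS9, a lectin that selects clients for degradation, was at 0.28, 0.70, 0.22 and -0.14 (mean 0.26 ± 0.13, adjusted p = 0.498), and UBC32, a ubiquitin-conjugating enzyme of the ER, had a mean of 0.05 ± 0.09. AT4G29960 had a mean of 0.13 ± 0.08.

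**Figure D3:**
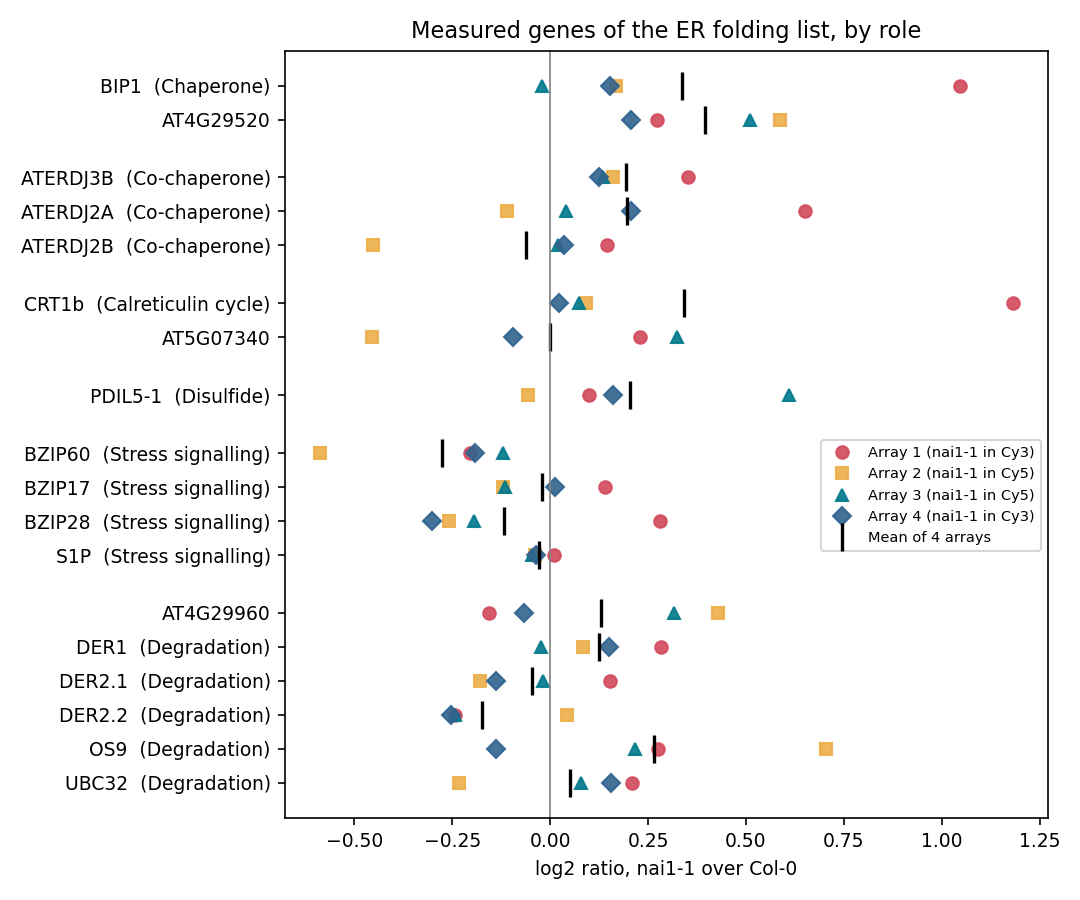
Rows are the 18 measured genes of the ER folding list, grouped by role (loci without a symbol in the gene table carry no role label), and the horizontal axis is the log2 ratio of nai1-1 over Col-0. Symbols are single arrays and black ticks are means of 4 arrays. Array 1 is the rightmost symbol for 11 of the 18 genes, and the means lie between -0.28 and 0.39.

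Across the list, array 1 was often the highest array. By Dixon's criterion it stood apart on the high side for none of the other 14 genes. The share over all single-gene probes without an exact 0 was 1.74%, so a count of none is near that background. Array 1 was the highest of the 4 arrays for 11 of the 18 genes, among them CRT1b, BIP1 and ATERDJ3B and 8 of the other 14, and 34.0% of all single-gene probes without an exact 0 had it highest. The median of the 18 was 0.22 on array 1 and -0.05, 0.03 and 0.02 on arrays 2, 3 and 4. The 8 measured genes of the folding roles (chaperones, co-chaperones, the calreticulin cycle and disulfide formation) were above 0 in 8, 4, 7 and 7 cases on arrays 1 to 4, with medians of 0.31, 0.02, 0.10 and 0.14. The 4 signalling genes were above 0 in 3, 0, 0 and 1 cases, with medians of 0.07, -0.19, -0.12 and -0.11. Of all 9335 single-gene probes, 4774, 4936, 4947 and 4569 were above 0 on arrays 1 to 4. The folding roles include CRT1b, BIP1 and ATERDJ3B, and the signalling genes include BZIP60. This division by role was drawn after the values were known and carries no test. Without CRT1b, BIP1, ATERDJ3B and BZIP60, the other 14 had a median of 0.18 on array 1 and a median over the means of 0.03.

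Chaperones outside the ER were compared because BiP belongs to the HSP70 family. Of 31 listed genes of the cytosol and organelles, 9 were measured and 0 passed, while 4 had an unadjusted p under 0.05, all with ratios above 0; over all single-gene probes 14.9% had such a p, and 6.51% with a ratio above 0. The median of their means was 0.32, against 0.09 for the ER list. AT3G09440 had the array 1 pattern most like BIP1 on this list, at 1.45, 0.36, 0.21 and 0.59, and was above 0 on 4 of 4 arrays (mean 0.65 ± 0.17, adjusted p = 0.241). Hsp70-2, an HSP70 gene, was at 0.12, -0.26, -0.05 and 0.21.

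The remaining genes of that list differed in the order of the arrays. AT5G48570, annotated as the FKBP-type gene ROF2, also had array 1 highest, at 1.17, 0.76, 0.77 and 0.96 (mean 0.92 ± 0.08, adjusted p = 0.0511). Hop3, a co-chaperone that links HSP70 and HSP90, was at 0.76, 0.29, 1.12 and 0.91 (mean 0.77 ± 0.16, adjusted p = 0.177). Fes1A, a nucleotide exchange factor of HSP70, was at 0.07, -0.15, 0.75 and 0.60, and AT1G07400 at 0.23, 0.21, 1.18 and 1.06, both higher on arrays 3 and 4 than on arrays 1 and 2. AT2G29500 and ATHSP22.0, a small heat shock protein gene, had means of 0.24 ± 0.13 and 0.14 ± 0.10. AT1G53540 was low on array 1, at -0.87, against -0.09 to 0.28 on the others. Array 1 was the highest array for 2 of the 9 genes, and the median difference of array 1 from the other 3 was -0.01, against 0.21 in the ER list and 0.02 over all single-gene probes. The difference between the lists was not tested.

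The fitted values of the 4 genes depended on array 1 in 2 cases. Leaving out array 1 brought CRT1b to 0.05 and BIP1 to 0.11, while leaving out array 4 gave 0.63 and 0.56. ATERDJ3B stayed between 0.14 and 0.25 and BZIP60 between -0.39 and -0.16 when single arrays were left out. Scaling the arrays to a common spread gave 0.25 for CRT1b, 0.26 for BIP1, 0.18 for ATERDJ3B and -0.26 for BZIP60. No probe on the arrays reached an adjusted p under 0.05 in any of these fits. That the 4 genes did not pass there therefore carries no information about them.

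**Figure D4:**
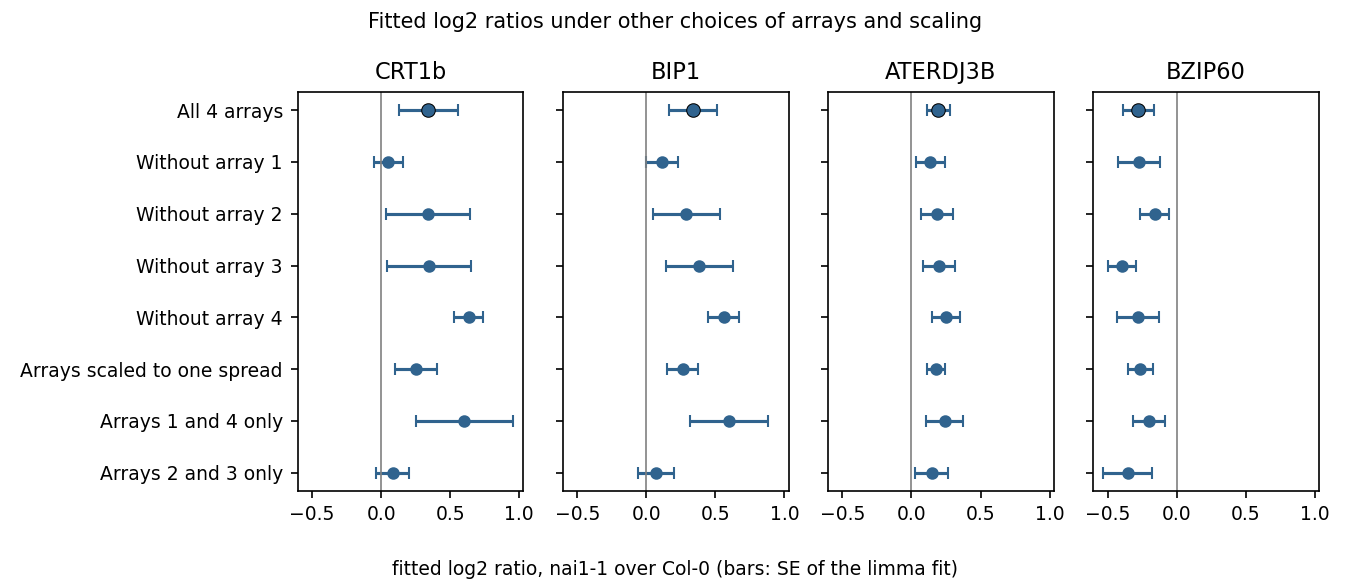
Points are fitted log2 ratios, nai1-1 over Col-0, with all 4 arrays (black), without each array in turn, with arrays scaled to one spread, and within each dye orientation; bars are the SE of the limma fit. CRT1b moves between 0.05 and 0.63 and BIP1 between 0.07 and 0.60, while ATERDJ3B stays above 0 and BZIP60 below 0 throughout.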

How the data were processed

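Each array has 1 deposited log10 ratio for each probe. The submitters' processing notes name Agilent Feature Extraction 7.1 as the software the authors used; its background and dye settings were not given. That the scale is log10 and the ratio Cy5 over Cy3 follows from that software's convention. Dividing by 0.301 turned the values into log2 ratios, and the sign was turned on arrays 1 and 4. Nothing else was normalized. Intensities and flags were not used here, so dim or saturated spots were kept, and the number of arrays sets the precision. Of 22575 probes, 9335 had 1 gene, 40 had several, which were not named, and 13200 were not listed and are unnamed here. Symbols follow the RefSeq table for TAIR10.1, which matched 9317 probes. No member held an exact 0.

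Genotype was fitted with a dye term in limma 3.58.1 (R 4.3.3, lmFit, eBayes, two-sided, Benjamini-Hochberg over all probes at 0.05). In simulated ratios for all 22575 probes this fit called 44% of the changes of 1 log2 unit, 78% of the changes of 2 log2 units and 3 probes without a change. The simulated noise was independent and equally wide on every array, and its size was shuffled among probes. The real arrays differed in width and may be technical repeats, so these shares may not hold for them. The genes named were the 4 members, every measured gene of the ER list, the 3 probes nearest to each member, the measured chaperones elsewhere, NAI1, NAI2 and PYK10; photosynthesis genes were used as a list. Members, lists and the comparison of array 1 with the other arrays were chosen with earlier results of these data known.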

Additional observations from a re-analysis of the deposited data

Results flagged for a closer look

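Of 42 named genes, 10 had a single array that met Dixon's criterion, where chance gives about 1 in 20 and 7 of the 10 had been picked for their likeness to a member. Array 1 was high for CRT1b (1.18 against 0.02 to 0.09) and ATERDJ3B (0.35 against 0.13 to 0.16). It was also high for AT4G17520 (1.19), AT2G47610 (1.08), AT1G29320 (1.09), AT1G48230 (0.99), AT1G53040 (1.01) and AT3G13410 (0.41). Array 2 was apart for DER2.2, at 0.044 against -0.25 to -0.24, and for AT1G27200, at -0.58 against -0.20 to -0.16. Array 1 was the widest array, and the part of its width in these values was not tested beyond the scaling given above.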

How the results depend on the processing

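With all 4 arrays, 112 probes passed the threshold. The count was 394 without the dye term and 778 without probes holding an exact 0, and it was 0 with arrays scaled to a common spread, with arrays 1 and 2 and arrays 3 and 4 averaged as 2 replicates, within either dye orientation, and in each fit that left out 1 array (lowest and highest 0). The cause of these changes was not tested, except that the last 3 kinds of fit use fewer arrays or values. In all of these fits 0 of 18 genes of the ER list passed and the 4 members kept their direction. Where no probe passed, the count for the list carries no information. The unadjusted p of limma was less stable in the fits that kept all 4 arrays apart. Without the dye term it was under 0.05 for ATERDJ3B (0.0488) and BZIP60 (0.044), and with scaling for BZIP60 (0.045). CRT1b and BIP1 stayed above 0.05 in both of these fits, but not in every fit that left out 1 array. Such a fit leaves 1 array in a dye orientation, so its unadjusted p-values are not given. The number of members with array 1 apart was 2, and 1 after scaling. Leaving out single arrays gave 0.05 to 0.63 for CRT1b, 0.11 to 0.56 for BIP1, 0.14 to 0.25 for ATERDJ3B, -0.39 to -0.16 for BZIP60 and 0.01 to 0.12 for the median of the ER list, which was -0.04 on arrays 2 and 3 alone. The fits within a dye orientation were chosen after seeing the data. The comparison was paired within each array, which holds both genotypes as 1 ratio.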
